A study of Mus musculus with 24 samples.

Results

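Genes of fatty acid oxidation and targets of the nuclear receptor PPARα were followed through mouse kidney libraries. The members were 34 named genes among 30153 in the deposited table, taken by symbol from the mouse annotation of the GRCm38 build, and 34 of 34 had a row. Polyadenylated RNA was sequenced in 6 groups of 4 libraries, with 4 animals a group, all labelled as kidney of C57/BL6 mice. The lines named Hap-I and Hap-II overexpress the human angiotensin receptor type 1 as its haplotypes I and II, and the series title calls such mice hypertensive. Western diet was given to Hap-I adults, to aged mice of the same line and to adults of line Hap-II. C57 adults carried neither haplotype and have no diet in their labels, so the effects of line and diet cannot be told apart in a comparison with C57. The last groups were adult and aged mice of line Hap-I with no diet in their labels. The labels give no exact age, sex, batch, transgene promoter or number of founder lines.

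Fatty acids are taken up by carriers such as Cd36, activated to acyl-CoA by Acsl1 and passed into mitochondria as carnitine esters by Cpt1a, Slc25a20 and Cpt2. In the matrix a spiral of dehydrogenation, hydration, a further dehydrogenation and thiolysis releases acetyl-CoA, with enzymes that differ in the chain length they accept, and electron transfer flavoprotein hands the electrons to the respiratory chain. Peroxisomes shorten very long and dicarboxylic chains by a parallel route. PPARα, encoded by Ppara, binds DNA with a retinoid X receptor and drives many of these genes, and the kidney's proximal tubule relies on fatty acids for much of its ATP.

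Levels are in TPM, a length-corrected share of all transcripts in a library that carries no read depth, so depth is unknown and precision comes only from the spread of the 4 libraries in a group. Differences are on the log2(TPM + 1) scale, which understates changes of weakly expressed genes. They were tested with limma over 12923 genes in the 16 kidney libraries, and a gene is said to be called when its Benjamini-Hochberg adjusted p over all genes tested was under 0.05. Aged Hap-I mice were not tested against C57, and their values are given as levels. The low-value filter of 1 TPM in at least 4 libraries passed 33 of the 34 members. Eci1, an isomerase of unsaturated chains, did not pass and was listed at or near 0 in 14 of 16 kidney libraries, the exceptions being 10.4 TPM in Hap-I adult replicate 4 and 15.8 TPM in aged Hap-I replicate 4, both on the diet.

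The libraries differed in content in ways that touch every comparison with C57. Transcripts of the mitochondrial genome took 12.4 to 16.9% of TPM in C57 adults and 21.2 to 35.7% in the 12 libraries on the diet. The median gene changed by -0.80 between Hap-I adults on the diet and C57 and by -0.59 between Hap-II adults and C57, on the log2(TPM + 1) scale. Summed TPM of 16 proximal tubule markers were 7413 to 8617 in C57 adults, 2825 to 4181 in Hap-I adults, 2553 to 7645 in Hap-II adults and 2931 to 7619 in the aged diet group. Of these markers, 11 of 16 were called lower in Hap-I and 7 of 16 in Hap-II adults against C57, with 0 called higher, and none was at 0 throughout a group. Their changes ran from -3.29 to 4.62 in Hap-I and from -2.57 to 3.09 in Hap-II. The highest in both was Slc7a13, at 135 to 301 TPM in 7 of the 12 diet libraries and 0.459 to 1.34 TPM in the other 5. It was 1.21 to 2.14 TPM in C57 adults. Summed TPM of 11 adipocyte markers were 179 to 2326 in C57 adults and 110 to 362 on the diet, with 8 of 8 tested markers called lower in both comparisons. Plin1 was at 0 throughout the aged Hap-I and Hap-II groups on the diet. Markers of other kidney cells were lower too, with 10 of 11 distal nephron and 9 of 10 endothelial markers called in Hap-I and 5 of 11 and 9 of 10 in Hap-II, where 59.7% and 36.9% of all genes were lower. Of the immune markers 4 of 10 and 1 of 10 were called lower, with median changes of -0.77 and -0.36. Eif2s3y, a gene of the Y chromosome, was at 5 TPM or more in 3 of 4 Hap-I, 2 of 4 Hap-II and 2 of 4 aged Hap-I libraries on the diet and in 0 of 4 C57 libraries. Except where a value is given below, the part of these differences in the results was not tested. Fewer tubule cells and less RNA of a gene per cell cannot be told apart in whole-tissue RNA.

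The 8 libraries labelled Hap-I with no diet were low in the labelled tissue's markers. Their proximal tubule markers summed to 83.0 to 158 TPM, and their 10 neuronal markers to 6416 to 7958 TPM, against at most 17.0 TPM of the latter in any of the other 16. They are used here only as a reference for another tissue.

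In C57 kidney the highest levels among the members were those of Acadm, Etfb, Acsm2 and Etfa. Acadm, the medium-chain acyl-CoA dehydrogenase, had the highest level at 984 ± 239.7 TPM (SD, n = 4), followed by Etfb, the β subunit of electron transfer flavoprotein, at 699 ± 257 TPM. Acsm2, a mitochondrial synthetase that activates medium-chain acids, stood at 581 ± 129 TPM and Etfa, the α subunit, at 369 ± 33.8 TPM. These spreads overlap between Acadm and Etfb and between Etfb and Acsm2. A run of matrix and peroxisomal enzymes from Acaa2 (316 ± 8.06 TPM) to Hadha (185 ± 23.99 TPM) followed. The lowest tested members were the acyl-CoA thioesterase Acot1 at 3.36 ± 0.425 TPM, Acsm3 at 8.51 ± 5.54 TPM and Acot2 at 11.8 ± 3.73 TPM, with the coactivator Ppargc1a at 17.5 ± 7.76 TPM. Summed over the members, TPM ran from 5611 to 6858 in C57 adults, 3215 to 4096 in Hap-I adults, 3619 to 5759 in Hap-II adults and 2913 to 6115 in the aged diet group.

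**Figure D1:**
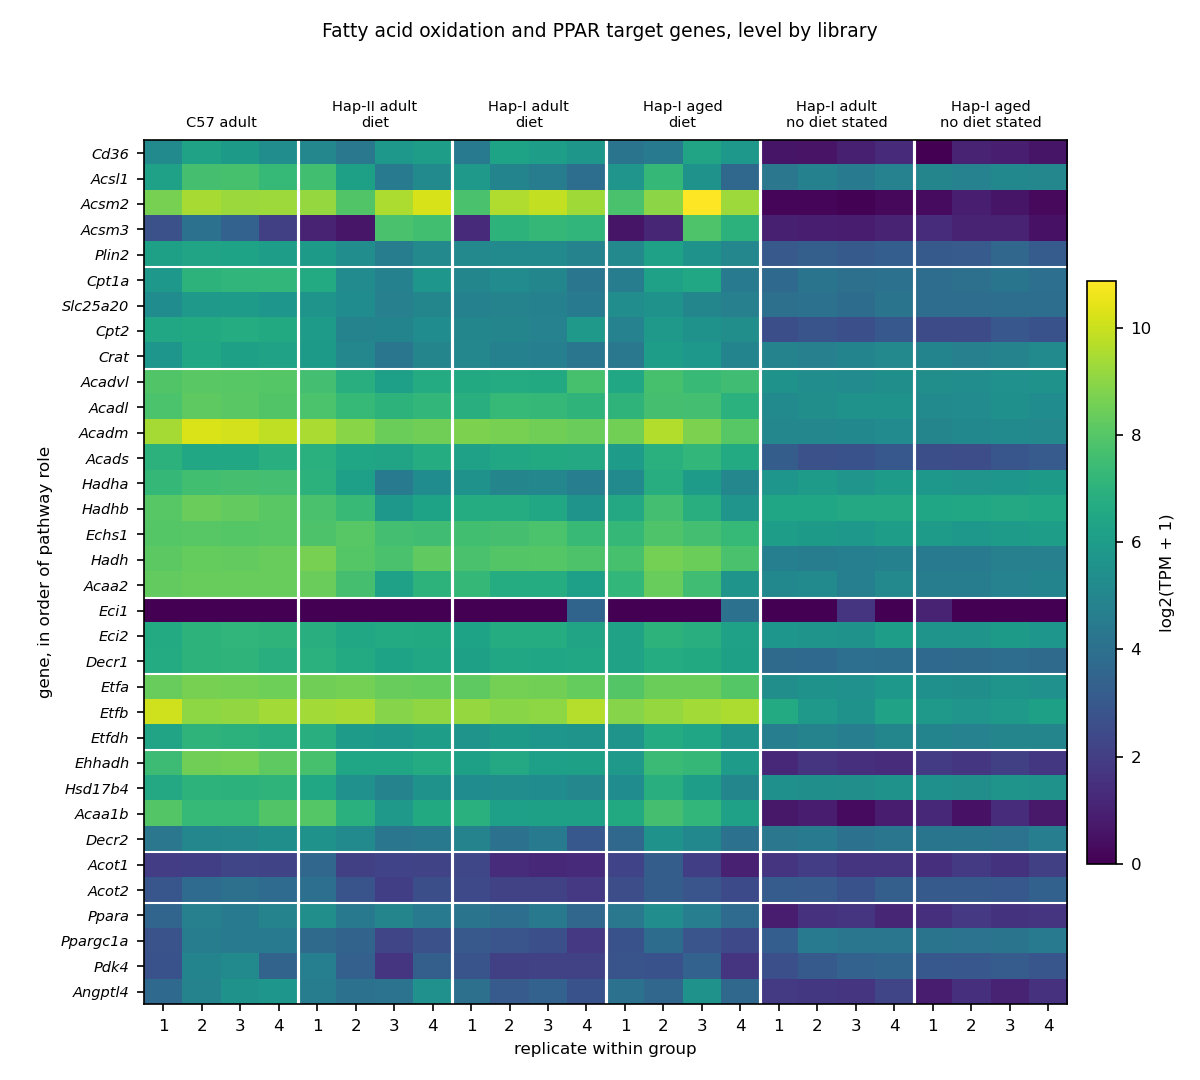
Level of each of the 34 members (rows, ordered by pathway role with white lines between roles) in each of the 24 libraries (columns, by group and replicate), as log2(TPM + 1) on a colour scale from 0 upward. Acadm is brightest in C57 adults (676 to 1216 TPM), Acsm3 switches between libraries of the diet groups, and the 8 libraries with no diet stated are dark for Acsm2, Acaa1b, Ehhadh and Cd36.

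Against C57 adults, 22 of 33 tested members (66.7%) were lower in Hap-I adults on the diet and 0 were higher by limma. The background was 59.7% of all genes tested called lower and 2.28% higher, so the members' share lay near that of all genes. The members' median change was -1.11 against -0.80 for all genes, and 20 of 33 members (60.6%) lay below every C57 library in all 4 Hap-I libraries, against 55.3% of all genes. By step, 4 of 4 carnitine shuttle members, 7 of 9 enzymes of the matrix spiral, 3 of 4 peroxisomal members and 3 of 4 regulators and targets were called lower, and 1 of 3 electron transfer members and 2 of 5 members of uptake, activation and storage. Differences between steps were not tested. With each library rescaled by the median of its gene ratios, the median of all genes became 0.00 and 9 members were called, 5 lower and 4 higher, against a background of 14.0% lower and 18.2% higher. The 5 were Hadha, Ehhadh, Hadhb, Hsd17b4 and Acot2, and the 4 were Etfa, Acads, Hadh and Echs1. With only libraries under 5 TPM of Eif2s3y, 1 Hap-I library remained, too few to read the number of calls (5 genes and 0 members), and the values there were -1.97 for Hadha, -2.02 for Ehhadh and -1.64 for Cpt2.

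Hap-II adults on the diet were compared with the same 4 C57 libraries. There 10 of 33 tested members (30.3%) were lower and 0 higher by limma, against a background of 36.9% lower and 2.73% higher. The members' median change was -0.67 against -0.59 for all genes, and 7 of 33 members (21.2%) lay below every C57 library in all 4 Hap-II libraries, against 26.7% of all genes. The 10 were Hadha, Hadhb, Acadm, Acadl, Acadvl, Cpt2, Crat, Ehhadh, Hsd17b4 and Plin2. Under median-of-ratios rescaling, with the median of all genes at 0.01, the split turned to 4 higher (Ppara, Acot1, Hadh and Etfa) and 1 lower (Hadha), against 13.1% higher and 9.56% lower. The count was 18 without Hap-II replicate 1, 3 without Hap-II replicate 3 and 6 without C57 replicate 2. Over all genes, calls in either direction numbered 6961, 1803 and 2674 there, against 5127 with each library kept. With only libraries under 5 TPM of Eif2s3y, 2 Hap-II libraries remained, with 40 genes and 0 members called, and the values were -0.98 for Hadha, -1.15 for Ehhadh and -1.18 for Cpt2.

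**Figure D2:**
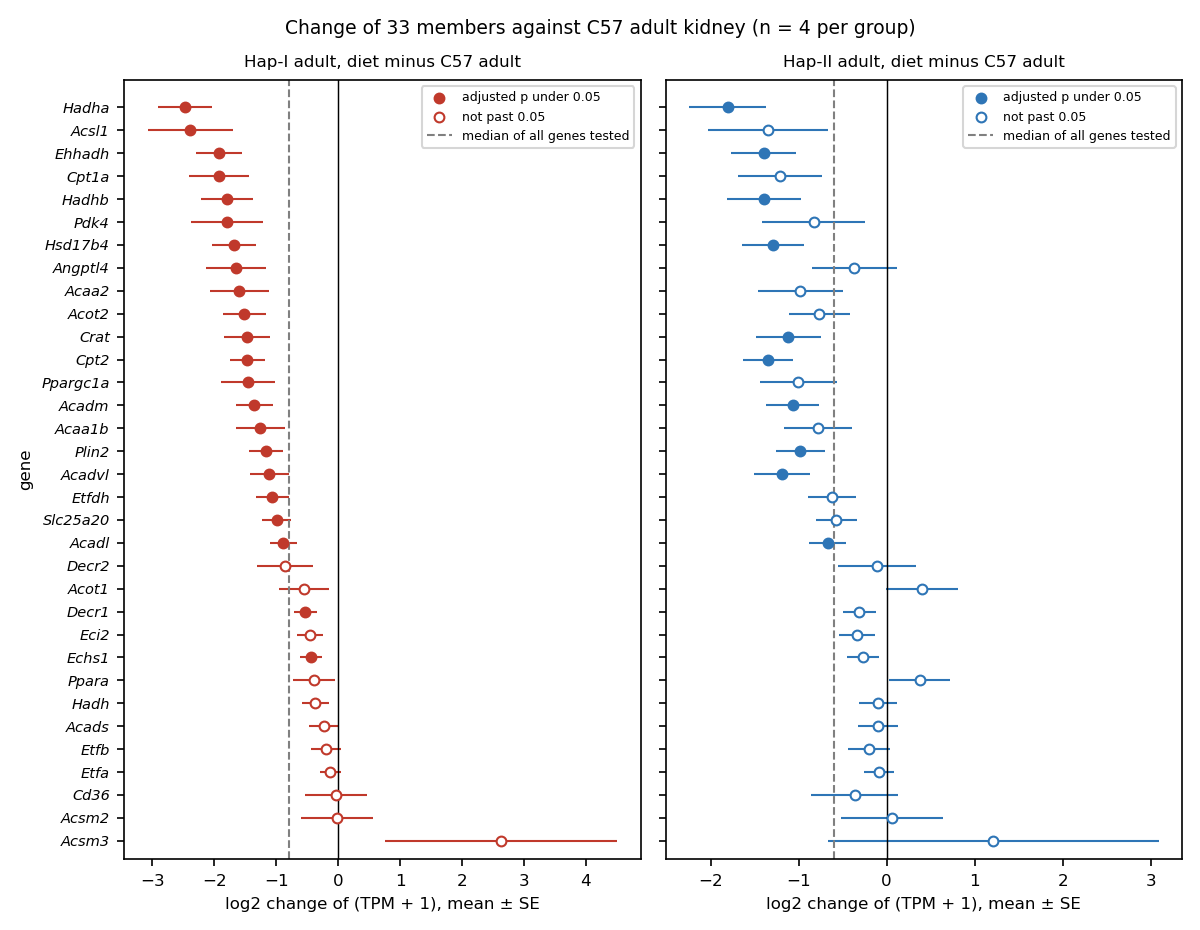
Change of each of the 33 tested members (rows) against C57 adults in Hap-I adults (left) and Hap-II adults (right) on the diet, as mean ± SE on the log2(TPM + 1) scale, with filled points called and open points not. The dashed line is the median of all genes tested (-0.80 left, -0.59 right), and Hadha lies farthest to its left in both panels, at -2.48 and -1.80.

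Of the members of uptake, activation and storage, Acsl1 and Plin2 were called lower in Hap-I adults. Acsl1, the long-chain acyl-CoA synthetase (ENSMUSG00000018796, chr8:46471037-46536051), stood at 72.9, 201, 208 and 153 TPM in C57 adults and 57.6, 28.9, 22.6 and 14.3 TPM in Hap-I adults. It stood at 189, 71.1, 21.9 and 35.4 TPM in Hap-II adults and 50.1, 149, 45.7 and 11.5 TPM in aged Hap-I mice. All Hap-I adult libraries were below all C57 libraries, while Hap-II replicate 1 and aged replicate 2 lay within the C57 range. The Hap-I change was -2.39 ± 0.69 (SE, adjusted p = 0.008203), and the Hap-II change of -1.35 was not called (adjusted p = 0.117). With Y-linked expression as a covariate the Hap-I change was -1.22 and not called (adjusted p = 0.126). Plin2, which coats lipid droplets (ENSMUSG00000028494, chr4:86648386-86670060), stood at 71.99, 81.4, 77 and 67.7 TPM in C57 adults, 33.3, 34.7, 35.3 and 28.1 TPM in the Hap-I group and 60.1, 39.7, 23.6 and 33.9 TPM in Hap-II adults. It stood at 33.4, 72.98, 47.5 and 31.6 TPM in aged Hap-I mice. Both adult diet groups lay below C57 without overlap, and aged replicate 2 reached the C57 range. Plin2 was called lower in Hap-I, at -1.16 ± 0.27 (adjusted p = 0.00318), and in Hap-II, at -0.98 ± 0.27 (adjusted p = 0.0147). Relative to the median gene these changes were -0.36 and -0.39.

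Cd36, the fatty acid carrier of the plasma membrane (ENSMUSG00000002944, chr5:17781690-17888801), stood at 35.6, 76.1, 58.9 and 39.7 TPM in C57 adults, 21.4, 77.1, 64.5 and 52.7 TPM in the Hap-I group and 31.6, 19.7, 55.02 and 65.5 TPM in Hap-II adults. The groups overlapped, and neither the change of -0.04 in Hap-I (adjusted p = 0.947) nor that of -0.36 in Hap-II (adjusted p = 0.556) was called. The Hap-I value took the opposite sign, 0.96, under median-of-ratios rescaling, and with Y-linked expression as a covariate Cd36 was called lower in Hap-I, at -1.13 (adjusted p = 0.0241). Acsm2 (ENSMUSG00000030945, chr7:119554340-119600690) stood at 401, 706, 601 and 614 TPM in C57 adults, 216, 767, 941 and 641 TPM in Hap-I adults, 567, 243, 745 and 1199.5 TPM in Hap-II adults and 215, 508, 1872 and 627 TPM in aged Hap-I mice. The highest and the lowest of these 16 values both came from aged Hap-I mice, and its changes of -0.02 and 0.06 were not called (adjusted p = 0.982 and 0.939). The first became 1.004 under median-of-ratios rescaling, also not called.

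The promoter windows of RefSeq around the start of transcription (build GRCm38.p6) were searched on both strands for the hexamer AGGTCA to which nuclear receptors bind, and for its direct repeat with a spacer of 1 base, AGGTCANAGGTCA, the form PPARα prefers. Windows were found for 29 of 34 members, 31 in all. None held the full repeat or its looser form AGGNCANAGGNCA, which 0.0396% and 0.381% of all 32851 windows held. At such rates 31 windows would rarely hold a match, so its absence says little about the members. Sequence outside these short windows was not searched. The single hexamer was in 6 of 31 member windows (19.4%), those of Acadm, Acadvl, Cd36, Cpt1a, Echs1 and Plin2, against 16.3% of all windows. A match is a run of letters and not a shown site. Stretches of 60 bases from Plin2 (chr4:86670245-86670304) and Acadvl (chr11:70015483-70015542), both read on the minus strand, are shown. Of the 6 genes, only these had an upstream hexamer within 60 full bases outside the annotated gene. Both were called lower in both comparisons with C57, as was Acadm, which did not meet that rule. Cpt1a and Echs1, which also held the hexamer, were called lower in Hap-I only, and Cd36 in neither. A link between the hexamer and the calls was not tested. Capitals mark the hexamer, whose first base lies 218 bases upstream of the RefSeq start in Plin2, in reverse orientation, and 87 bases upstream in Acadvl.
Plin2: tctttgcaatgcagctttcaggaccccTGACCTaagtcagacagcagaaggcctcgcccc
Acadvl: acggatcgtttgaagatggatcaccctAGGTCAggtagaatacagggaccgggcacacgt

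The carnitine shuttle was called lower at each of its 4 members in Hap-I adults, where 59.7% of all genes were. Under median-of-ratios rescaling 0 of the 4 were called, with Cpt1a at -0.92 and Crat at -0.48 (adjusted p = 0.0503 and 0.0941). Cpt1a, the outer-membrane transferase that sets the rate of entry into mitochondria (ENSMUSG00000024900, chr19:3322334-3385733), stood at 55.3, 131, 143 and 147 TPM in C57 adults and 30.8, 37.4, 31.1 and 18.5 TPM in Hap-I adults. It stood at 98.7, 37.2, 26.6 and 51.6 TPM in Hap-II adults and 23.1, 74.5, 87.7 and 20.5 TPM in aged Hap-I mice. C57 replicate 1 was far below its 3 neighbours, and Hap-II replicate 1 and aged replicates 2 and 3 lay within the C57 range. The change was -1.92 ± 0.48 in Hap-I (adjusted p = 0.00426, -1.12 relative to the median gene), and -1.21 ± 0.48 in Hap-II was not called (adjusted p = 0.0543). Cpt2, the inner-membrane transferase (ENSMUSG00000028607, chr4:107903981-107923610), stood at 90.1, 97.5, 105 and 96.1 TPM in C57 adults, 30.5, 29.5, 27.3 and 56.5 TPM in Hap-I adults, 61.98, 28.5, 28.5 and 38.6 TPM in Hap-II adults and 27.1, 58.2, 46.6 and 40.7 TPM in aged Hap-I mice. All 12 diet libraries were below all 4 C57 libraries. Cpt2 was called lower at -1.47 ± 0.28 in Hap-I (adjusted p = 0.00145) and at -1.35 ± 0.28 in Hap-II (adjusted p = 0.00454), or -0.67 and -0.76 relative to the median gene. Under median-of-ratios rescaling its changes were -0.46 and -0.62, neither of them called.

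Slc25a20, the carnitine-acylcarnitine exchanger (ENSMUSG00000032602, chr9:108662088-108684641), averaged 52.7 ± 10.5 TPM in C57 adults, 25.7 ± 2.69 TPM in the Hap-I group and 35.6 ± 9.68 TPM in Hap-II adults (SD, n = 4). Its change of -0.99 in Hap-I was called (adjusted p = 0.00326) but became 0.002 under median-of-ratios rescaling, and -0.57 in Hap-II was not called (adjusted p = 0.0612). Crat, which moves short acyl groups between CoA and carnitine (ENSMUSG00000026853, chr2:30400471-30415813), averaged 72.2 ± 15.4 TPM in C57 adults, 25.3 ± 5.42 TPM in the Hap-I group and 35.2 ± 18.01 TPM in Hap-II adults. It was called lower in both, at -1.47 and -1.12 (adjusted p = 0.00436 and 0.0284), and Hap-II replicate 1 overlapped C57. The Hap-II call ended when any 1 of replicates 2, 3 and 4 of Hap-II or of C57 was left out (adjusted p from 0.0508 to 0.115, limma).

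**Figure D3:**
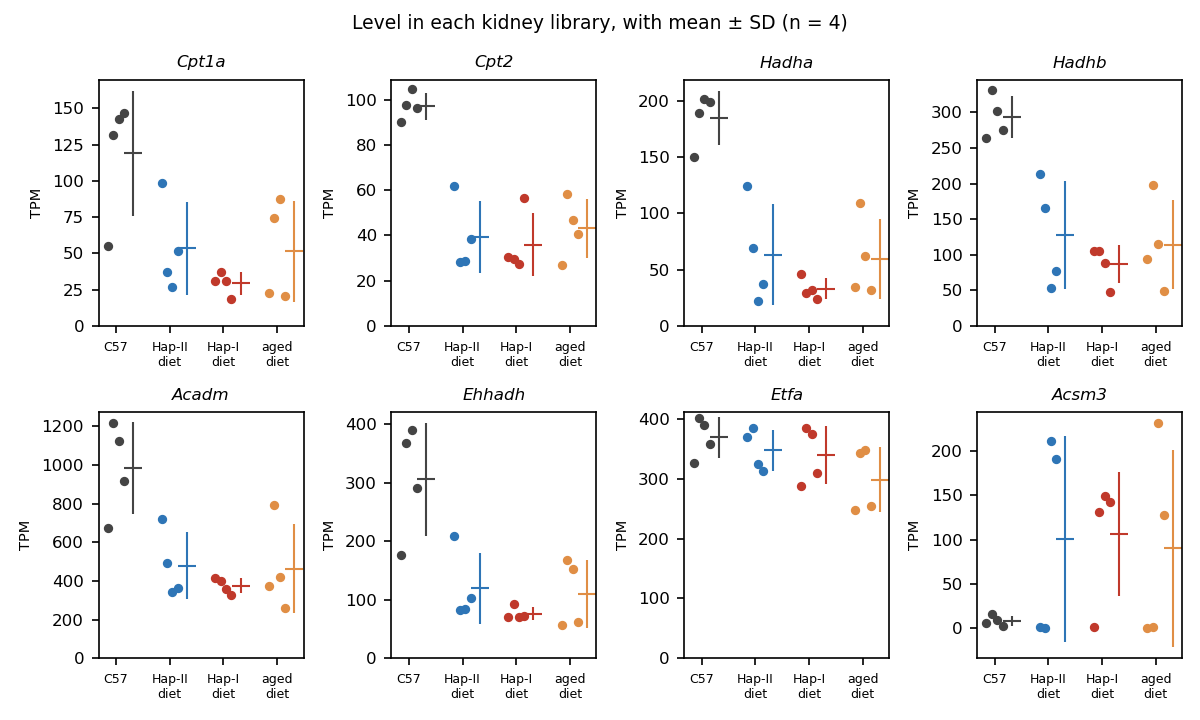
Level in TPM (vertical axis, including 0) of 8 members in each library of the 4 kidney groups, with the mean ± SD (n = 4) to the right of the points. Cpt2, Hadha and Hadhb lie below C57 in all 12 diet libraries, Etfa overlaps throughout (248 to 401 TPM), and Acsm3 splits the diet libraries into values under 1.5 and over 127 TPM.

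The first step of the matrix spiral is shared by acyl-CoA dehydrogenases of different chain length, and 3 of the 4 were called lower in both groups. Of all genes, 59.7% and 36.9% were called lower there, and under median-of-ratios rescaling none of the 3 remained called lower. Acadvl, for very long chains (ENSMUSG00000018574, chr11:70010183-70015411), stood at 243, 268, 261 and 252 TPM in C57 adults, 97.4, 101, 96.2 and 205 TPM in Hap-I adults, 195, 112, 69.5 and 102 TPM in Hap-II adults and 91.9, 211, 163 and 185 TPM in aged Hap-I mice. All 12 diet libraries were below the lowest C57 library, and Hap-I replicate 4 stood well above the other Hap-I adults. Acadvl was called lower at -1.11 ± 0.32 in Hap-I (adjusted p = 0.00783) and -1.19 ± 0.32 in Hap-II (adjusted p = 0.01195). Acadm (ENSMUSG00000062908, chr3:153922357-153944632) stood at 676, 1216, 1123 and 919 TPM in C57 adults, 418, 398, 360.2 and 329 TPM in Hap-I adults, 719, 492, 341 and 362 TPM in Hap-II adults and 374, 795, 421 and 262 TPM in aged Hap-I mice. Hap-I adults lay below C57 without overlap, while Hap-II replicate 1 and aged replicate 2 were within the C57 range. Acadm was called lower at -1.35 ± 0.30 in Hap-I (adjusted p = 0.00253) and -1.07 ± 0.30 in Hap-II (adjusted p = 0.0155).

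Acadl, the long-chain enzyme (ENSMUSG00000026003, chr1:66830839-66863277), was called lower in both groups, from 257 ± 32.02 TPM in C57 adults to 139 ± 18.3 TPM in the Hap-I group and 163 ± 39.4 TPM in Hap-II adults. Its changes of -0.88 and -0.67 (adjusted p = 0.00346 and 0.0235) turned to 0.13 and 0.06 under median-of-ratios rescaling. Acads, the short-chain enzyme (ENSMUSG00000029545, chr5:115110299-115119346), stood at 127, 88.8, 87.2 and 116 TPM in C57 adults, 73.3, 89.6, 95.2 and 94.4 TPM in Hap-I adults and 118, 84.6, 81.4 and 106 TPM in Hap-II adults. These groups overlapped, and the changes of -0.23 and -0.10 were not called (adjusted p = 0.381 and 0.741). Relative to the median gene the Acads values were 0.57 and 0.50, and under median-of-ratios rescaling Acads was called higher in Hap-I, by 0.78 (adjusted p = 0.0405).

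The later steps on long chains are carried out by the trifunctional protein, whose α and β subunits are encoded by Hadha and Hadhb. The genes lie back to back on chromosome 5 (Hadha ENSMUSG00000025745, chr5:30118304-30155162, minus strand, and Hadhb ENSMUSG00000059447, chr5:30155248-30184593, plus strand), and the 85 bases between their annotated starts (chr5:30155163-30155247, plus strand, build GRCm38.p6) are shown because both subunits were called lower in both comparisons. No letter is in capitals, since the hexamer searched for above is not in this stretch.
Hadha-Hadhb: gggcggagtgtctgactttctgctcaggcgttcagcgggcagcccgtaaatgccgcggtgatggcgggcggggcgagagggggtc
Hadha stood at 149.9, 189.7, 202 and 199 TPM in C57 adults and 46.3, 29.7, 32.2 and 24.2 TPM in Hap-I adults. It stood at 124, 68.98, 22.2 and 37.7 TPM in Hap-II adults and 34.9, 109, 62.5 and 31.6 TPM in aged Hap-I mice. All 12 diet libraries were below every C57 library, with Hap-II replicate 1 and aged replicate 2 the highest of them. Hadha was called lower at -2.48 ± 0.44 in Hap-I (adjusted p = 0.00109) and -1.80 ± 0.44 in Hap-II (adjusted p = 0.00846), or -1.68 and -1.21 relative to the median gene. It was the member with the largest fall in both, and the only one still called lower in both under median-of-ratios rescaling, at -1.47 and -1.07 (adjusted p = 0.00244 and 0.0143).

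Hadhb stood at 264, 331, 303 and 275 TPM in C57 adults, 106, 106, 89.1 and 48.4 TPM in Hap-I adults, 214, 166, 53.98 and 77.03 TPM in Hap-II adults and 94.4, 198, 115 and 49.9 TPM in aged Hap-I mice. Again all 12 diet libraries were below every C57 library. Hadhb was called lower at -1.80 ± 0.42 in Hap-I (adjusted p = 0.00317) and -1.40 ± 0.42 in Hap-II (adjusted p = 0.01998). A pseudogene, Gm13910, shares 19.5% of the words of 31 bases in Hadhb transcripts. Per length, the level of Hadhb was above that of Hadha in each of the 16 kidney libraries.

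The remaining enzymes of the spiral ranged from Hadh and Echs1, whose direction turned with the scaling, to Acaa2, which lay well below C57 in Hap-I adults. Hadh, the dehydrogenase of short 3-hydroxyacyl-CoA (ENSMUSG00000027984, chr3:131233419-131272101), stood at 279, 315, 303 and 323 TPM in C57 adults, 216, 247, 255 and 224 TPM in Hap-I adults and 393, 258, 217 and 296 TPM in Hap-II adults. Hap-I adults lay below C57 without overlap, but the change of -0.37 was not called (adjusted p = 0.143), and under median-of-ratios rescaling Hadh was called higher in both groups, by 0.65 and 0.64. Echs1, the short-chain hydratase (ENSMUSG00000025465, chr7:140105710-140116476), had narrow spreads of 260.1 ± 5.65 TPM in C57 and 193 ± 23.2 TPM in Hap-I adults. Its change of -0.43 in Hap-I was called (adjusted p = 0.0436) and turned to a called 0.58 under median-of-ratios rescaling. The first call ended when any 1 C57 library or Hap-I replicate 1, 2 or 4 was left out (adjusted p from 0.0627 to 0.126, limma). Acaa2, the mitochondrial thiolase (ENSMUSG00000036880, chr18:74779197-74806208), stood at 304, 322, 319 and 320.2 TPM in C57 adults, 152, 106, 105 and 68.9 TPM in Hap-I adults, 335, 202, 74.2 and 129 TPM in Hap-II adults and 147, 328, 187 and 48.2 TPM in aged Hap-I mice. The C57 values were within a few percent of each other, Hap-I adults lay below them without overlap, and Hap-II replicate 1 and aged replicate 2 lay above them. Acaa2 was called lower in Hap-I, at -1.60 ± 0.48 (adjusted p = 0.0103), and not in Hap-II, at -0.98 ± 0.48 (adjusted p = 0.105).

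Eci2 and Decr1 prepare unsaturated chains for the spiral by isomerisation and reduction. Eci2 (ENSMUSG00000021417, chr13:34977748-35027096) averaged 126 ± 18.2 TPM in C57, 91.5 ± 15.2 TPM in the Hap-I group and 99.2 ± 8.57 TPM in Hap-II adults, and its changes of -0.46 and -0.33 were not called (adjusted p = 0.0612 and 0.191). Decr1 (ENSMUSG00000028223, chr4:15917240-15945507) averaged 119.9 ± 13.4 TPM in C57, 82.5 ± 8.06 TPM in the Hap-I group and 97.5 ± 19.2 TPM in Hap-II adults. It was called lower in Hap-I, at -0.53 (adjusted p = 0.0212), with the opposite sign, 0.48, under median-of-ratios rescaling, and not in Hap-II (-0.31, adjusted p = 0.177).

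Electron transfer from the dehydrogenases held 2 of the members with the smallest differences. Etfa (ENSMUSG00000032314, chr9:55454508-55512243) stood at 327, 401, 390.3 and 358 TPM in C57 adults, 288, 385, 375 and 310.2 TPM in Hap-I adults and 369, 384, 325 and 312 TPM in Hap-II adults. The groups overlapped throughout, and changes of -0.13 ± 0.17 and -0.09 ± 0.17 were not called (adjusted p = 0.523 and 0.686). Etfa was called higher in both under median-of-ratios rescaling, by 0.89 and 0.65 (adjusted p = 0.00812 and 0.0413). Etfb (ENSMUSG00000004610, chr7:43444083-43457800) stood at 1074, 520.2, 545 and 658 TPM in C57 adults, 560.3, 497, 517 and 801 TPM in the Hap-I group and 649, 699, 475 and 533 TPM in Hap-II adults. C57 replicate 1 was the highest of these and the groups overlapped, with changes of -0.20 and -0.20 not called (adjusted p = 0.466 and 0.497). Etfb shares 47.3% of its words of 31 bases with the gene model Gm45233, so its reads may have been divided. Etfdh, the ubiquinone oxidoreductase that receives the electrons (ENSMUSG00000027809, chr3:79603788-79629500), averaged 111 ± 22.98 TPM in C57, 51.9 ± 5.65 TPM in the Hap-I group and 73.4 ± 25.8 TPM in Hap-II adults. It was called lower in Hap-I, at -1.06 (adjusted p = 0.00461), and not in Hap-II, at -0.62 (adjusted p = 0.0741).

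In the peroxisome both bifunctional enzymes were called lower in both groups. Ehhadh, the L-specific enzyme and a classical PPARα target (ENSMUSG00000022853, chr16:21761287-21787807), stood at 176, 368, 389.9 and 290.2 TPM in C57 adults and 71.2, 92.2, 69.99 and 72.4 TPM in Hap-I adults. It stood at 209.6, 82.5, 83.9 and 102 TPM in Hap-II adults and 57.6, 168, 152 and 62.3 TPM in aged Hap-I mice. Only Hap-II replicate 1 among the 12 diet libraries reached the C57 range, whose lowest value was replicate 1. The changes were -1.93 ± 0.37 in Hap-I (adjusted p = 0.00143) and -1.40 ± 0.37 in Hap-II (adjusted p = 0.0121). Hsd17b4, the D-specific enzyme (ENSMUSG00000024507, chr18:50128201-50196269), stood at 92.5, 128, 125 and 132 TPM in C57 adults, 37.5, 38.6, 37.7 and 31.3 TPM in Hap-I adults, 90.2, 44.3, 28.2 and 45.2 TPM in Hap-II adults and 38.3, 112, 67.8 and 31.2 TPM in aged Hap-I mice. Adults on the diet were below C57 without overlap in both lines, and aged replicate 2 reached the C57 range. The changes were -1.68 ± 0.35 (adjusted p = 0.00197) and -1.29 ± 0.35 (adjusted p = 0.0138). Under median-of-ratios rescaling Ehhadh and Hsd17b4 remained called lower in Hap-I, at -0.92 and -0.67, but not in Hap-II, at -0.66 and -0.56.

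Acaa1b, a peroxisomal thiolase (ENSMUSG00000010651, chr9:119148023-119157093), stood at 251, 154, 155 and 238 TPM in C57 adults, 119, 70.1, 70.5 and 72.1 TPM in Hap-I adults, 256, 119, 55.5 and 95.7 TPM in Hap-II adults and 97.4, 202, 147 and 73.4 TPM in aged Hap-I mice. Hap-I adults lay below C57 without overlap, and Hap-II replicate 1 was the highest of all. It was called lower in Hap-I, at -1.26 ± 0.39 (adjusted p = 0.0121), and the Hap-II change of -0.78 was not called (adjusted p = 0.112). It shares 40.0% of its words of 31 bases with Acaa1a, and the sum of both genes changed by -1.15 in Hap-I (adjusted p = 0.0102). Decr2, the peroxisomal dienoyl-CoA reductase (ENSMUSG00000036775, chr17:26081208-26090337), averaged 31.3 ± 9.24 TPM in C57, 18.1 ± 8.94 TPM in the Hap-I group and 29.9 ± 13.02 TPM in Hap-II adults, with changes of -0.86 and -0.11 not called (adjusted p = 0.1001 and 0.851).

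Acot1 and Acot2 are neighbouring genes for acyl-CoA thioesterases of the cytosol and the mitochondrion, and both are induced by PPARα agonists. Acot2 (ENSMUSG00000021226, chr12:83987861-83993873) stood at 6.46, 12.9, 15.1 and 12.8 TPM in C57 adults, 4.203, 3.32, 3.41 and 2.46 TPM in Hap-I adults, 14.8, 6.09, 3.01 and 5.19 TPM in Hap-II adults and 4.99, 8.11, 6.198 and 4.395 TPM in aged Hap-I mice. Acot2 was called lower in Hap-I, at -1.52 ± 0.35 (adjusted p = 0.00285), without overlap, and not in Hap-II, at -0.76 (adjusted p = 0.0851). Acot1 (ENSMUSG00000072949, chr12:84009490-84018371) stood at 2.99, 3.01, 3.81 and 3.64 TPM in C57 adults, 3.92, 1.61, 1.32 and 1.56 TPM in Hap-I adults, 11, 3.16, 3.58 and 3.72 TPM in Hap-II adults and 3.56, 8.11, 3.07 and 0.983 TPM in aged Hap-I mice. Replicate 1 was the highest library in both adult diet groups, and the changes of -0.56 and 0.40 were not called (adjusted p = 0.236 and 0.427). The genes share words of 31 bases (29.9% of Acot2 and 16.7% of Acot1), and their sum was called lower in Hap-I, at -1.33 (adjusted p = 0.00735).

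Among regulators, the receptor gene itself did not pass the test. Ppara (ENSMUSG00000022383, chr15:85734983-85802819) stood at 10.7, 25.5, 21.95 and 28 TPM in C57 adults, 16.96, 14.3, 20.2 and 10.9 TPM in Hap-I adults, 40.04, 19.99, 30.1 and 20.8 TPM in Hap-II adults and 19.3, 39.8, 23.9 and 12.99 TPM in aged Hap-I mice. The groups overlapped, and the changes of -0.39 and 0.38 were not called (adjusted p = 0.322 and 0.376). Under median-of-ratios rescaling they were 0.57, not called, and 1.08, called higher in Hap-II (adjusted p = 0.0134). Ppargc1a, a coactivator of mitochondrial gene expression (ENSMUSG00000029167, chr5:51454250-51567726), stood at 5.94, 22.6, 20.4 and 21.1 TPM in C57 adults, 7.32, 6.35, 5.24 and 2.54 TPM in Hap-I adults, 12.7, 10.1, 3.79 and 5.54 TPM in Hap-II adults and 5.74, 13.4, 6.21 and 4.25 TPM in aged Hap-I mice. C57 replicate 1 lay among the diet libraries, while C57 replicates 2, 3 and 4 were above all 12. Ppargc1a was called lower in Hap-I, at -1.46 ± 0.44 (adjusted p = 0.0102), and not in Hap-II, at -1.01 (adjusted p = 0.0736).

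Pdk4 and Angptl4 are PPAR targets, of which the former spares glucose and the latter inhibits lipoprotein lipase. Pdk4, a kinase that turns off pyruvate dehydrogenase (ENSMUSG00000019577, chr6:5483351-5496309), stood at 5.75, 28.7, 35.2 and 9.87 TPM in C57 adults, 6.18, 3.11, 3.25 and 3.33 TPM in Hap-I adults, 24.9, 9.12, 2.102 and 8.76 TPM in Hap-II adults and 6.14, 5.61, 9.79 and 2.19 TPM in aged Hap-I mice. The C57 libraries spread widely and overlapped every other group. Pdk4 was called lower in Hap-I, at -1.80 ± 0.59 (adjusted p = 0.0157), and not in Hap-II, at -0.83 ± 0.59 (adjusted p = 0.251). Angptl4 (ENSMUSG00000002289, chr17:33773750-33781830) stood at 12.2, 28.05, 45.5 and 51.1 TPM in C57 adults, 14.9, 7.57, 9.58 and 5.64 TPM in Hap-I adults, 23.7, 16.04, 16.7 and 44.3 TPM in Hap-II adults and 15.7, 10.9, 47.1 and 11.4 TPM in aged Hap-I mice. Hap-I replicate 1 overlapped C57 replicate 1, and aged replicate 3 was at the upper end of the C57 range. Angptl4 was called lower in Hap-I, at -1.65 ± 0.49 (adjusted p = 0.009401), and its Hap-II change of -0.37 was not called (adjusted p = 0.544).

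The libraries of a group differed in how many members lay below C57. Of the 33 tested members, 25 to 27 lay below every C57 library in each Hap-I adult library. In Hap-II adults the number was 10, 24, 27 and 22 in replicates 1 to 4, and in aged Hap-I mice 28, 11, 16 and 27. The libraries with 10, 11 and 16 such members, Hap-II replicate 1 and aged replicates 2 and 3, had proximal tubule marker sums of 7645, 7619 and 7056 TPM, near the 7413 to 8617 TPM of C57 adults. The other 9 diet libraries had 2553 to 4238 TPM. The share of all genes below every C57 library in those 3 libraries was 33.9, 30.1 and 50.3%, against 56.6 to 83.4% in the other 9. The marker sums include Slc7a13, at 135 to 301 TPM in the 7 diet libraries with at least 5 TPM of Eif2s3y. The part of tubule content in the members' levels was not tested.

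Transcript length moved with the difference too. The median change between Hap-I adults and C57 ran from -0.21 over genes with transcripts of at most 1000 bases to -1.04 over those longer than 6000 bases. Across the 33 members, Spearman's rho between length and change was -0.324, and across 12848 genes with a length it was -0.341, as a description over genes that share the same 8 libraries and are no independent replicates. Etfb (893 bases) and Etfa (1392 bases), whose changes were near 0, have the shortest transcripts among tested members, while Hadha (4017 bases), Acsl1 (3897 bases) and Cpt1a (4317 bases) are among the longest. Acsm2 has the longest (6738 bases) and a change of -0.02. With each library centred within 10 bins of length, 9 of 33 members were called lower in Hap-I and 0 higher, against 14.1% lower and 15.3% higher among all genes. In Hap-II 5 were lower and 2 higher, against 10.7% and 11.7%. Hadha was at -1.55 in Hap-I and -1.10 in Hap-II after this centring.

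**Figure D4:**
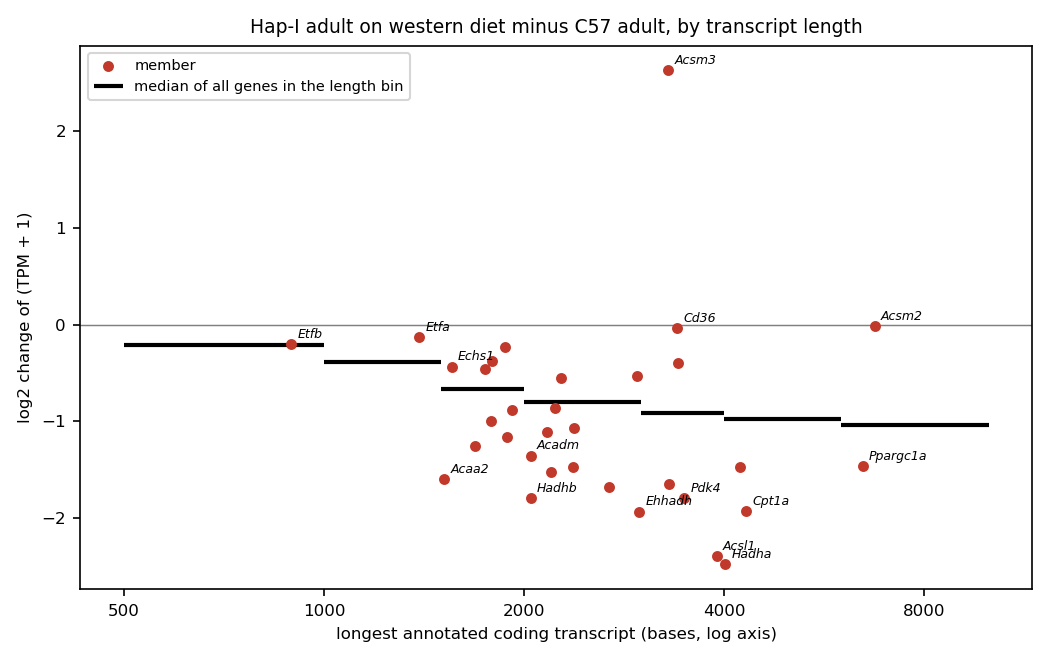
Change of each tested member between Hap-I adults on the diet and C57 adults (vertical axis, log2 of TPM + 1) against the length of its longest annotated coding transcript in bases (horizontal, log axis), with bars for the median of all genes in each length bin. The bars descend from -0.21 to -1.04, Hadha and Acsl1 lie well below theirs, and Etfb and Etfa lie near 0.

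Between the haplotypes, Hap-I and Hap-II adults on the diet, 0 of 33 tested members were called by limma, and 10 of 12923 genes were (0.0542% lower and 0.0232% higher in Hap-I). At an unadjusted p under 0.05 there were 4 members and 421 genes. So the larger count in Hap-I than in Hap-II against C57 is not a shown difference between the haplotypes. The members' median difference was -0.39 and that of all genes -0.22. Angptl4 had the largest difference below 0, at -1.28 ± 0.49 (adjusted p = 0.817), and was the only member without overlap, at 5.64 to 14.9 TPM in the Hap-I group and 16.04 to 44.3 TPM in Hap-II, where 2.24% of all genes were lower without overlap. Further differences were -1.04 for Acsl1, -0.97 for Pdk4, -0.96 for Acot1, -0.77 for Ppara, -0.75 for Acot2 and -0.75 for Decr2, each with an adjusted p of 0.817. The difference largest in size was above 0, at 1.42 ± 1.88 for Acsm3 (adjusted p = 0.825). Hadha differed by -0.67 ± 0.44 and Etfb by 0.0007. With the SE of these differences, a change of about 1 log2 unit in Acsl1 or Pdk4 could not be told from 0.

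Age was compared in Hap-I mice on the diet, and 0 of 33 tested members were called by limma. The background was 0.00774% of genes lower and 0.0232% higher. At an unadjusted p under 0.05 there were 0 members and 2080 genes. The members' median difference, aged against adult, was 0.36 and that of all genes 0.32. The largest differences above 0 were 0.91 ± 0.49 in Angptl4, 0.70 ± 0.69 in Acsl1, 0.69 ± 0.44 in Hadha and 0.66 ± 0.35 in Acot2 (adjusted p = 0.346, 0.5500, 0.404 and 0.344). Acot2 was the only member without overlap, at 4.395 to 8.11 TPM in aged and 2.46 to 4.203 TPM in adult mice, as were 6.18% of all genes in that direction. Crat, Hsd17b4 and Acaa1b followed at 0.60, 0.59 and 0.57, Cd36 was at -0.44 and Acsm3 at -1.53. With libraries weighted by their fit to the model (array weights), 4 members and 2199 genes were called, the members all higher in aged mice. Among the 4 were Angptl4 at 1.54 and Crat at 0.77 (adjusted p = 0.0332 and 0.0448).

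Acsm3, a medium-chain synthetase of the mitochondrion (ENSMUSG00000030935, chr7:119760923-119787513), fell into separate levels within each diet group. It stood at 5.51, 15.8, 9.62 and 3.13 TPM in C57 adults and 1.46, 131, 149 and 143 TPM in Hap-I adults. It stood at 1.13, 0.587, 211 and 191 TPM in Hap-II adults and 0.514, 1.21, 231 and 128 TPM in aged Hap-I mice. In each diet group some libraries were at or under 1.46 TPM and the others above 127 TPM, with C57 between. The high libraries were the 7 of 12 diet libraries with at least 5 TPM of the Y-linked gene Eif2s3y, and the low ones were the other 5. The changes of 2.63 ± 1.88 in Hap-I and 1.21 ± 1.88 in Hap-II were not called (adjusted p = 0.224 and 0.604), and with Y-linked expression as a covariate they reversed to -1.90 (adjusted p = 0.0560) and -2.03 (adjusted p = 0.0487), the latter called lower. The same covariate ended the Hap-I calls of Acsl1, Acadvl, Acaa2 (-0.88), Acaa1b (-0.67), Echs1, Decr1, Ppargc1a and Pdk4 (adjusted p from 0.0685 to 0.194). It left the calls of all other members called lower in Hap-I, among them Hadha at -1.81 and Ehhadh at -1.83. In Hap-II it ended those of Plin2, Crat, Acadl, Acadm, Hadhb and Hsd17b4 (adjusted p from 0.0601 to 0.104). Sex is not in the labels, and no test was run on that split. Cd36 likewise did not overlap between those libraries, at 52.7 to 81.5 TPM in the 7 and 17.0 to 31.6 TPM in the 5. Acsm2 ran from 627 to 1872 TPM in the 7 and from 215 to 567 TPM in the 5. Acsl1 did not overlap either, in the opposite direction, at 11.5 to 45.7 TPM in the 7 and 50.1 to 189 TPM in the 5. The share of all genes without overlap between the 7 and the 5 was not counted. The separation of Acsm3, Cd36, Acsm2 and Acsl1 is therefore not shown to be particular to them. Hadha overlapped, at 22.2 to 62.5 TPM in the 7 and 34.9 to 124 TPM in the 5, and both ranges were below the 149.9 to 202 TPM of C57. Cpt2 did so too, at 27.3 to 56.5 and 27.1 to 62.0 TPM against 90.1 to 105 TPM.

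**Figure D5:**
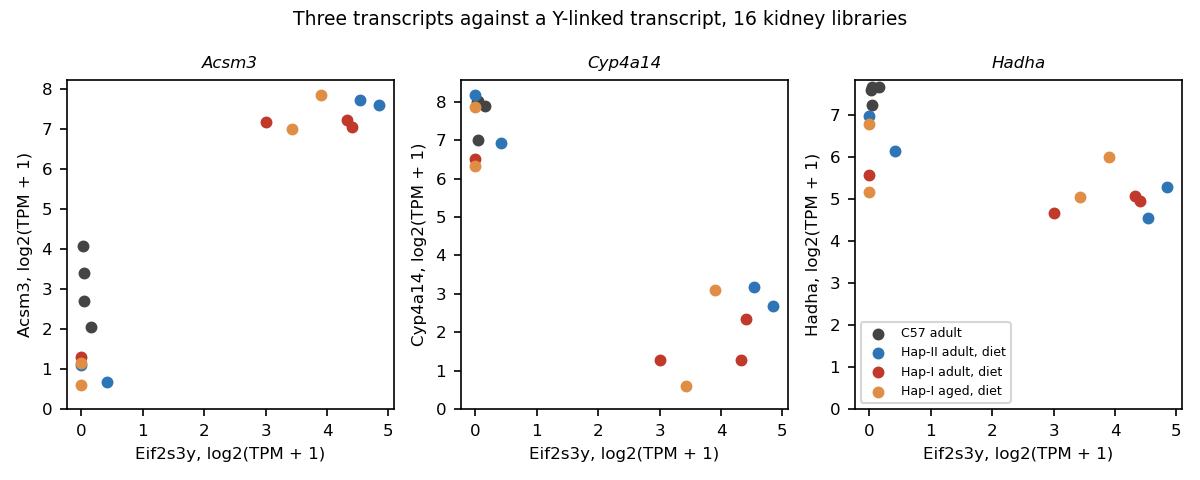
Level of Acsm3, Cyp4a14 and Hadha (vertical axes, log2 of TPM + 1) against that of the Y-linked gene Eif2s3y (horizontal, same scale) in the 16 kidney libraries, coloured by group. Acsm3 is above 127 TPM only where Eif2s3y is at least 5 TPM, Cyp4a14 is under 8.2 TPM there, and Hadha shows C57 above all diet libraries on either side.

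A further 81 genes of fatty acid oxidation and PPAR signalling were listed, of which 72 were tested. In Hap-I adults 46 of 72 were called lower than in C57 and 0 higher, where 59.7% of all genes were lower, with a median change of -1.01, against -0.80 for all genes. In Hap-II adults 24 of 72 were lower and 0 higher, where 36.9% of all genes were lower, with a median of -0.74 against -0.59. Under median-of-ratios rescaling these counts were 14 lower and 13 higher in Hap-I (14.0% and 18.2% of all genes), and 11 lower and 10 higher in Hap-II (9.56% and 13.1%). None was called between the haplotypes or the ages. Among the largest called differences in Hap-I were those of Cyp4a14 and Cyp4a10, fatty acid ω-hydroxylases induced by PPARα, at -4.87 ± 1.48 and -2.54 ± 0.69 (adjusted p = 0.0111 and 0.00629). Cyp4a14 stood at 127, 254, 261 and 234 TPM in C57 adults and 90.5, 4.09, 1.41 and 1.44 TPM in Hap-I adults, and over the 12 diet libraries it ran from 0.508 to 8.12 TPM in the 7 with Eif2s3y and from 79.7 to 291 TPM in the 5 without. Cyp4a10 shares words of 31 bases with Cyp4a31 and Cyp4a32, so its reads may have been divided.

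Lipe, the hormone-sensitive lipase, was called lower at -2.71 in Hap-I and -2.004 in Hap-II (adjusted p = 0.000431 and 0.00145), and Pnpla2, the adipose triglyceride lipase, at -2.25 and -1.82 (adjusted p = 0.00145 and 0.008002). Both are abundant in adipocytes, and Lipe is itself among the adipocyte markers. Acacb, the carboxylase that makes malonyl-CoA at the mitochondrial surface, was called lower at -2.34 in Hap-I and -1.99 in Hap-II (adjusted p = 0.0007302 and 0.00194). Acsm1, another medium-chain synthetase, stood at 255, 299, 258 and 269 TPM in C57 adults, 87.1, 42.3, 46.2 and 47.04 TPM in the Hap-I group and 149, 78.9, 28.6 and 49.8 TPM in Hap-II adults. Its changes were -2.32 ± 0.45 and -2.06 ± 0.45 (adjusted p = 0.00145 and 0.00534). Fabp1, a fatty acid binding protein of the cytosol, was called lower in Hap-I (-2.32, adjusted p = 0.0272), and its Hap-II change of -0.16 was not called (adjusted p = 0.889). Its level also separated the diet libraries by Eif2s3y, at 1.96 to 8.86 TPM in the 7 with at least 5 TPM of Eif2s3y and 11.6 to 76.1 TPM in the other 5. Cpt1b, a muscle-type carnitine transferase, was called lower in both, at -1.79 and -1.49 (adjusted p = 0.000774 and 0.002896), as was Bdh1, a ketone body dehydrogenase, at -1.84 and -1.47 (adjusted p = 0.00165 and 0.009696). Cpt1b shares 79.7% of its words of 31 bases with the overlapping gene model Gm44502 and is uncertain.

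The 8 libraries with neuronal transcripts set part of the kidney pattern apart from another tissue. Against Hap-I adults with no diet stated, 22 of 34 members were higher in Hap-I adults on the diet and 2 lower, where the background was 16.9% higher and 63.3% lower among 15200 genes tested. Median-of-ratios rescaling gave 30 higher and 0 lower, against 36.0% and 40.9%. The largest differences were in Acsm2 (8.99), Acaa1b (5.68), Ehhadh (4.83) and Cd36 (4.78), and those of the matrix spiral were led by Acads (3.55), Acadm (3.46) and Hadh (3.18). Over all kidney and all other libraries, Acsm2 ran from 215 to 1872 TPM against 0.0489 to 0.863 TPM. Ehhadh ran from 57.6 to 389.9 TPM against 1.33 to 3.16 TPM. The 2 lower members were Ppargc1a at -1.45 ± 0.40 and Acot2 at -0.97 ± 0.30, and Acot2 changed sign under median-of-ratios rescaling (0.12). Hadha overlapped between the tissues, at 22.2 to 202 TPM in kidney and 49.2 to 62.0 TPM in the other 8. The same held for Hadhb, Hsd17b4, Crat, Acsl1, Acsm3, Decr2, Acot1, Acot2, Ppargc1a, Pdk4 and Eci1. This comparison sets tissue against tissue and says nothing of the diet.

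Between aged and adult mice within those 8 libraries, 0 of 30 tested members were called by limma, against 0.0296% of genes higher and 0 lower, and 3 members and 2081 genes had p under 0.05 before adjustment. The members' median difference was 0.0043 and that of all genes 0.12. Angptl4 was lower without overlap, as were 0.615% of all genes, at 1.41 ± 0.546 against 2.78 ± 0.769 TPM (SD, n = 4), with a difference of -0.66 (adjusted p = 0.223). Acsl1 and Ehhadh were higher without overlap, as were 10.5% of all genes, at 0.40 and 0.43 (adjusted p = 0.245 and 0.245).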

How the data were processed

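RNA of 24 mouse libraries was measured as TPM per gene, deposited by the authors in 1 table of 30153 genes. Per the submitters' processing notes the tools were kallisto and DESeq2, on build GRCm38, with no versions or roles given. Identifiers were given symbols from the GENCODE M21 annotation (29811 matched, 342 did not). TPM were put on log2(TPM + 1) and fitted with limma 3.58.1 (R 4.3.3) with a mean-variance trend, two-sided, with Benjamini-Hochberg adjustment over all genes tested and a threshold of 0.05. The main fit used the 16 kidney libraries and genes of at least 1 TPM in at least 4 of them. Pairs within the 8 other libraries were fitted on those, and kidney against them on all 24. The procedure was tested on simulated data. TPM are shares, so a rise in a few transcripts lowers all others, and alternatives rescaled, weighted or left out libraries, added a Y-linked covariate or a replicate block, or summed near-identical genes.

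The members and lists were chosen with earlier results of these data known. The text accounts for all 34 members, and gives in full those past the threshold in a kidney comparison, up to 8 more with the largest differences in each, and 11 central members whatever their values. Of the other pathway genes it names up to 6 past the threshold in each comparison. Slc7a13 and Cyp4a12a were chosen after their values were seen. The labels number the libraries of the diet groups, but do not say that a number marks shared animals or days. That the libraries of a group come from separate animals follows from the labels.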

Additional observations from a re-analysis of the deposited data

Results flagged for a closer look

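In 15 of 108 groups of 4 libraries, over 27 members, 1 library stood apart from the other 3 by Dixon's test. Chance gives about 1 in 20 for independent values with a normal spread. These were TPM of members measured in the same libraries, and the share over all genes was not counted. The number is therefore not shown to be particular to the members. No explanation is weighed here, and each value is given with the range of the other 3 libraries.

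In C57 adults it was replicate 1 each time. Cpt1a was 55.3 TPM there, against 131 to 147 TPM. Ppargc1a was 5.94 TPM, against 20.4 to 22.6 TPM. Hsd17b4 was 92.5 TPM, against 125 to 132 TPM, and Acaa2 304 TPM, against 319 to 322 TPM.

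Among Hap-I adults given the diet, replicate 1 stood apart in Acsm3 (1.46 TPM, against 131 to 149 TPM), Acaa1b (119 TPM, against 70.1 to 72.1 TPM), Acot1 (3.92 TPM, against 1.32 to 1.61 TPM) and Pdk4 (6.18 TPM, against 3.11 to 3.33 TPM). Replicate 4 stood apart in Cpt2 (56.5 TPM, against 27.3 to 30.5 TPM), Acadvl (205 TPM, against 96.2 to 101 TPM) and Hsd17b4 (31.3 TPM, against 37.5 to 38.6 TPM). Replicate 2 did so in Ehhadh (92.2 TPM, against 70.0 to 72.4 TPM).

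Hap-II replicate 1 stood apart in Ehhadh (210 TPM, against 82.5 to 102 TPM) and Acot1 (11 TPM, against 3.16 to 3.72 TPM). Aged Hap-I replicate 3 on the diet stood apart in Angptl4 (47.1 TPM, against 10.9 to 15.7 TPM).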

How the results depend on the processing

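Of the comparisons with C57, the count of members called in Hap-I adults was 22, with 8009 of all genes called. It lay between 19 and 22 with 1 library left out. Median-of-ratios rescaling made it 9 (4 higher and 5 lower, 4096 of all genes). Quantile normalization made it 13 of 33 (39.4%), with 0 higher, against 1893 lower and 2017 higher of 12923 genes. Centring by transcript length made it 9, with 0 higher, against 1824 lower and 1973 higher of 12923 genes. In Hap-II adults the count was 10, with 5127 of all genes called. It became 5 under median-of-ratios rescaling (4 higher and 1 lower, 2877 of all genes) and 22 with array weights (9706 of all genes). A Y-linked covariate gave 6 (1926 of all genes), and only libraries under 5 TPM of Eif2s3y gave 0 (40 of all genes). Without the 2 libraries with the fewest genes it was 4 (2201 of all genes). With 1 library left out it lay between 3 (1803 of all genes) and 18 (6961 of all genes). Between ages on the diet, array weights gave 4 members in place of 0. The subset under 5 TPM of Eif2s3y left 1 Hap-I and 2 Hap-II libraries, with the spread taken from the other groups. The number of calls in that subset therefore says nothing of the size of the changes. That subset, the centring by length, the set without the 2 libraries with the fewest genes and the block against Hap-I adults with no diet stated were chosen after seeing the data.

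Of 33 tested members, the change was below 0 in 32 in Hap-I and 29 in Hap-II adults. The medians of all genes were -0.80 and -0.59, so most genes were below 0 too, and their share was not counted. Median-of-ratios rescaling made the number of members 18 and 16 (medians of all genes 0.001 and 0.007), and quantile normalization 24 and 21 (-0.008 and -0.006). Removal of mitochondrially encoded genes made it 27 and 25 (-0.60 and -0.47), and centring by length 22 and 20 (0.003 and -0.003). These differences of Hap-I adults from C57 were among those that changed sign. Under median-of-ratios rescaling they were 0.96 for Cd36, 0.0020 for Slc25a20, 0.13 for Acadl, 0.78 for Acads, 0.58 for Echs1, 0.65 for Hadh, 0.55 for Eci2, 0.48 for Decr1, 0.82 for Etfb, 0.11 for Decr2, 0.16 for Acot1, 0.57 for Ppara, 0.89 for Etfa and 1.004 for Acsm2. Etfa and Acsm2 were also above 0 under quantile normalization (0.21 and 0.13), without mitochondrially encoded genes (0.16 and 0.27) and when centred by length (0.32 and 1.04). Quantile normalization gave 0.63 for Cd36, 0.36 for Acads, 0.093 for Eci2, 0.031 for Decr1, 0.27 for Acot1 and 0.45 for Ppara. Centring by length gave 0.86 for Cd36, 0.44 for Acads, 0.0092 for Echs1, 0.30 for Hadh, 0.22 for Eci2, 0.37 for Decr1, 0.22 for Acot1 and 0.51 for Ppara. Removing mitochondrially encoded genes gave 0.24 for Cd36, 0.049 for Acads and 0.086 for Etfb, and array weights gave 0.13 for Cd36. The Y-linked covariate gave -1.90 for Acsm3 and 0.071 for Acot1, and the subset under 5 TPM of Eif2s3y gave -1.76 and 0.18. With 1 library left out, Cd36 ranged from -0.26 to 0.34 and Etfb from -0.35 to 0.028. In Hap-II adults Acadl was 0.064 under median-of-ratios rescaling, and Acsm3 was -2.03 with the Y-linked covariate and -2.18 in that subset. Between ages Acsm3 was 0.010 with the covariate. The cause of these changes was not tested.

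With a replicate block, 0 members were called between haplotypes and 0 between ages on the diet, and 24 of 34 against Hap-I adults with no diet stated. Same-numbered libraries correlated at -0.0446 to 0.525 between haplotypes and 0.04 to 0.458 between ages. The best match of a Hap-I adult library had the same number for replicates 1, 3 and 4 between haplotypes and for replicates 3 and 4 between ages. The main fit did not take the numbers as pairs, since the labels do not say that a number marks shared animals or days. These values do not settle whether it does. No paired analysis was possible for C57 because its labels share no replicate numbers with the diet groups. Depth is unknown in TPM, so no counting error can be given for weakly expressed members such as Acot1.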

Other observations

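Neighbouring medium-chain synthetases of chromosome 7 had different patterns in the same libraries. Acsm1 was lower than in C57 in both adult diet groups, Acsm2 ranged over 215 to 1872 TPM with no call, and Acsm3 took values under 1.5 or over 127 TPM. Cyp4a12a and Slc7a13, chosen after their values were seen, split the 12 diet libraries as Acsm3 did. Slc7a13, a transporter of the proximal tubule, was 135 to 301 TPM in the 7 with at least 5 TPM of Eif2s3y and 0.459 to 1.34 TPM in the other 5, and 1.21 to 2.14 TPM in C57 adults. Cyp4a12a, an ω-hydroxylase, was 15.1 to 61.6 TPM in the 7 and 0.134 to 1.90 TPM in the 5, and 1.94 to 9.77 TPM in C57 adults, and it shares 62.2% of its words of 31 bases with Cyp4a12b.

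Fabp1, the cytosolic fatty acid binding protein, averaged 4.79 ± 4.53 TPM in the Hap-I group and 29.8 ± 26.7 TPM in Hap-II adults on the diet (SD, n = 4), a difference of -2.17 that limma did not call (adjusted p = 0.817). Over the diet libraries it was 1.96 to 8.86 TPM in the 7 with at least 5 TPM of Eif2s3y and 11.6 to 76.1 TPM in the other 5. Of the 7, 3 were Hap-I adults and 2 were Hap-II adults. The part of that split in the difference was not tested.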
